A study of Homo sapiens with 8 samples.

Results

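Polycomb repressive complex 2 (PRC2) was examined through the 10 genes that encode its subunits in Rh41, an established human line grown from an alveolar rhabdomyosarcoma, a childhood tumour with muscle features, which carries the PAX3-FOXO1 fusion. The members were taken by gene symbol as EZH1, EZH2, EED, SUZ12, RBBP4, RBBP7, JARID2, MTF2, PHF19 and PHF1, and all 10 were found among the 60234 genes of the deposited table. PHF1 was listed under 3 identifiers, and the only one with reads, ENSG00000112511, was kept. The study measured poly(A) RNA by 3′ end sequencing in 4 control libraries and 4 libraries with G9a knocked down, numbered 1 to 4 in each group. The sample labels call the knockdown siG9a and the series title writes shG9a, and the labels give neither the control reagent nor the time after knockdown. G9a, encoded by EHMT2, methylates histone H3 at lysine 9. EHMT2 was listed under 7 identifiers, and the one with the highest mean CPM was kept.

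PRC2 is the enzyme that methylates histone H3 at lysine 27, a mark of silenced genes. EZH2 or its paralogue EZH1 carries the catalytic SET domain, EED reads the methyl mark and stimulates the enzyme, SUZ12 is the scaffold, and RBBP4 or RBBP7 binds histones. A core of this kind joins either a Polycomb-like protein (PHF1, MTF2 or PHF19) or JARID2 with AEBP2. In muscle precursors EZH2 is known as a repressor of muscle genes that falls during differentiation, and PRC2 has been described as holding rhabdomyosarcoma cells undifferentiated.

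EED was the one member that passed the test of siG9a against control, and it did so only when libraries were compared within their replicate number. It was about 2-fold higher in siG9a (12.8 ± 2.93 against 26.03 ± 4.91 CPM, mean ± SD, n = 4 each). EZH2, SUZ12 and the other members did not pass in either fit. To show the sequence in front of the member that rose and of its catalytic partner, the 250 bases before the RefSeq start and the first 20 bases after it are given for EED (chr11:86244503-86244772, plus strand) and EZH2 (chr7:148884272-148884541, minus strand, the first of 2 listed starts), both in GRCh38.p14 and written 5′ to 3′ on the gene's strand. Capitals mark CCAAT on either strand and TTTNNCGC, a broad form of the E2F site, on either strand.

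EED: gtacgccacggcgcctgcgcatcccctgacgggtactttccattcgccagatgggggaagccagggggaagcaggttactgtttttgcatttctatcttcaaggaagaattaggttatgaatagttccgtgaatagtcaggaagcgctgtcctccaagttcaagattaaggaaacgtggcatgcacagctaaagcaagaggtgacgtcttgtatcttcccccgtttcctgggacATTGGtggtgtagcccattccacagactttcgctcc

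EZH2: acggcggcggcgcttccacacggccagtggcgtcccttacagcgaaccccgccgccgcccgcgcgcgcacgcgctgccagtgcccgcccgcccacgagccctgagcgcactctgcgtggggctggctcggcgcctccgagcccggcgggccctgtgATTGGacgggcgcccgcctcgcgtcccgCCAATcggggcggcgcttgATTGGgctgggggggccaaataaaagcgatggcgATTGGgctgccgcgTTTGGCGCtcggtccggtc

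The EED window held 1 CCAAT and no TTTNNCGC, and the EZH2 window held 4 CCAAT and 1 TTTNNCGC. CCAAT occurred in 33.1% and TTTNNCGC in 6.34% of 35116 RefSeq windows of the same length. Over the first listed start of each of the 10 members, 7 windows held CCAAT and 5 held TTTNNCGC. These matches are letters in a window, and no binding was measured here.

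Libraries held between 1458825 and 1938665 reads assigned to genes. Values are CPM, counts scaled to the library's total of assigned reads, in which 1 read was worth 0.516 to 0.685 CPM. EHMT2 lay between 57.6 and 88.3 CPM in control and between 19.6 and 58.5 CPM in siG9a, lower in 4 of 4 numbers. Its log2 change was −1.10, with an adjusted p of 0.191 by limma on the groups alone and 0.000472 by limma with the replicate number as a blocking factor, called the blocked fit below. The libraries numbered 3 stood apart in both groups: the summed level of 8 rhabdomyosarcoma markers was 293 CPM in control and 301 CPM in siG9a, where the other libraries lay between 991 and 1832 CPM. The summed level of 5 neural markers, nearly all of it NEFM and NEFL, was 9606 and 8930 CPM there and between 186 and 2951 CPM elsewhere. The summed level of 7 fibroblast markers was 118 and 51.95 CPM in the number 3 libraries and between 146 and 406 CPM elsewhere, and 4 blood markers summed to at most 2.74 CPM in any library. The summed level of 5 epithelial markers was highest in number 3 of each group, at 75.6 CPM in control (10.3 to 32.7 CPM in the others) and 43.96 CPM in siG9a (23.5 to 30.9 CPM in the others). Which cells the number 3 libraries hold was not tested, and some of the results, not all, are also given without them. The share of reads on mitochondrial genes ran from 4.59% to 9.18% in control and from 5.21% to 13.7% in siG9a.

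In control, the most abundant member was RBBP4 (271 ± 88.8 CPM, SD, n = 4). It was followed by JARID2 (155 ± 12.5), MTF2 (138 ± 14.7), SUZ12 (117 ± 35.9), EZH2 (113 ± 27.3), RBBP7 (110.1 ± 50.9), PHF19 (57.4 ± 12.9), EZH1 (33.5 ± 7.74), PHF1 (15.9 ± 8.14) and EED. Reads from 3′ ends are counted once per transcript, so these levels do not depend on length, though they do depend on priming and mapping. Neighbours in this order overlapped from library to library except at 3 steps. The control values of RBBP4 lay above those of JARID2, those of RBBP7 above those of PHF19, and those of PHF19 above those of EZH1. The summed level of the 10 genes was between 885 and 1197 CPM in control and between 969 and 1141 CPM in siG9a, so the ranges overlapped.

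**Figure D1:**
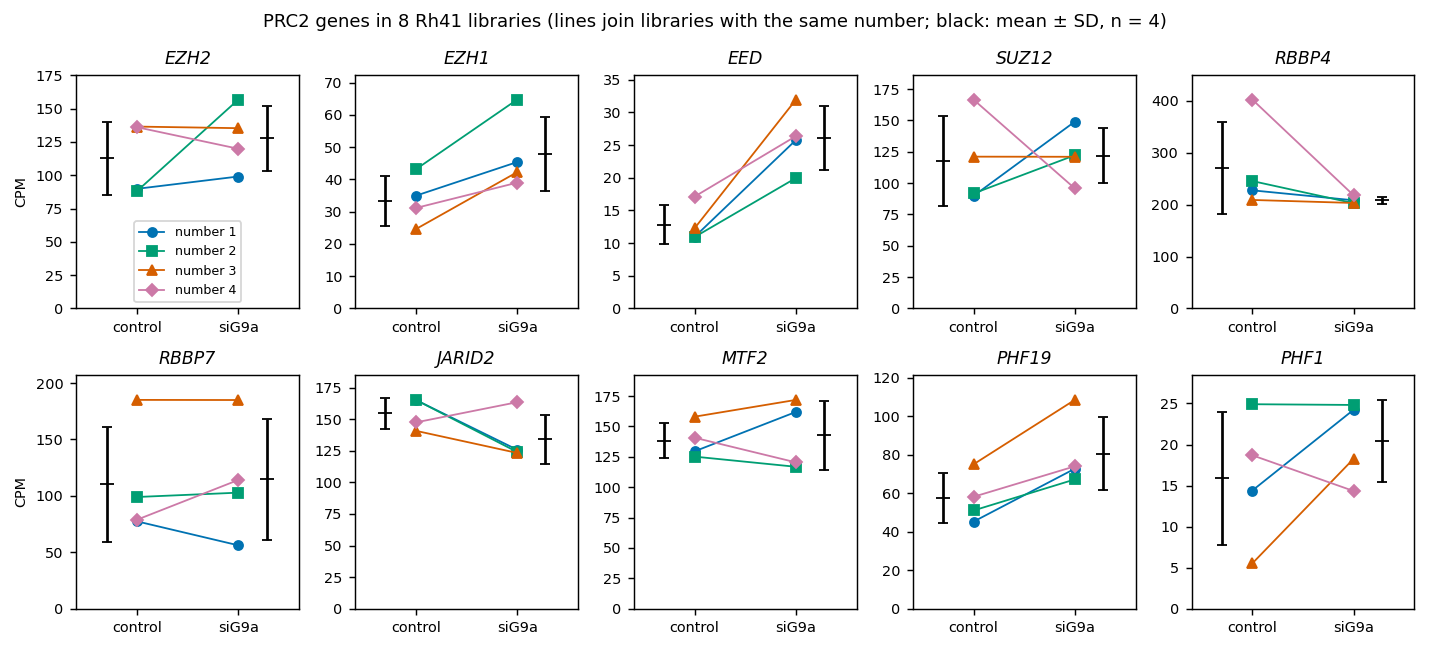
Level in CPM (vertical axes, each from 0) of the 10 PRC2 genes in the 4 control and 4 siG9a libraries, with lines joining libraries of the same number and black bars for the mean ± SD. The 4 siG9a values of EED lie above the 4 control values, while RBBP7 is highest in number 3 of both groups.

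The comparison of siG9a with control asked whether the transcripts of PRC2 changed with knockdown of G9a, which was partial at the RNA level. Limma on log2(CPM + 1) called 0 of the 10 members at an adjusted p under 0.05, where 0.0% of the 15092 genes tested were called. At an unadjusted p under 0.05 there was 1 member (EED) and 1880 genes, 12.5% of those tested. With the number 3 libraries left out limma called 0 members and 2.77% of genes. EdgeR on the recovered reads also called 0 members and 0.0% of genes, and DESeq2 called 0 members and 1.93% of genes. The blocked limma fit called 1 member, EED, and 11.4% of all genes (4.86% higher and 6.52% lower), so the members' count was near the background. At an unadjusted p under 0.05 the blocked fit had 4 members (EED, EZH1, PHF19 and RBBP4) and 25.5% of all genes. The median log2 change of the 10 members was 0.14, with 8 above 0, beside a median of 0.01 over all genes tested. By number, the median of the members was 0.34, 0.22, 0.06 and −0.02 for numbers 1 to 4.

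**Figure D2:**
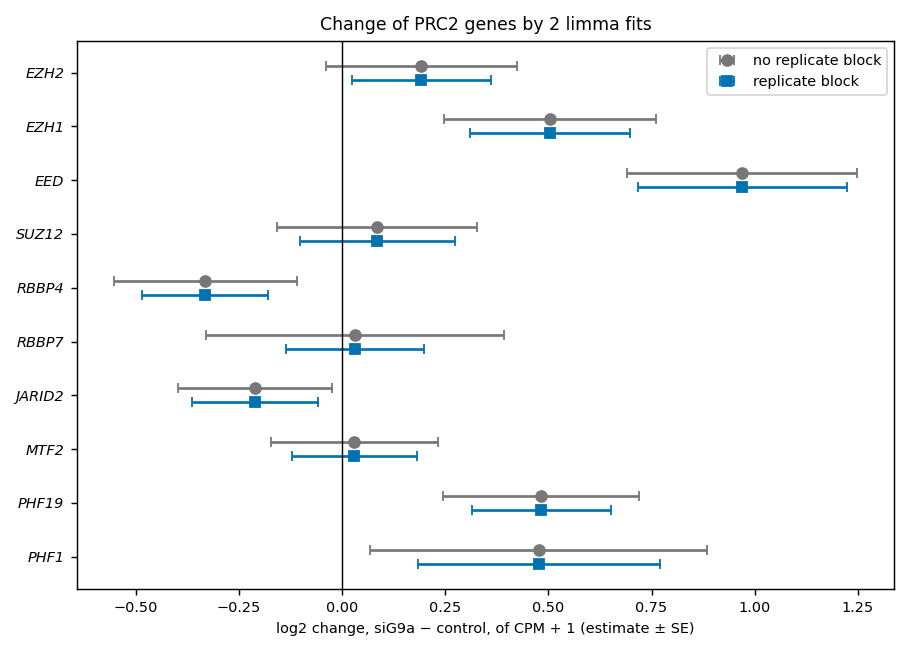
Log2 change (siG9a minus control, horizontal axis, of CPM + 1) of each PRC2 gene with its standard error, from the limma fit without a block (grey) and with the replicate number as a block (blue). EED has the highest estimate, 0.97, and RBBP4 the lowest, −0.33.

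EED, the WD-repeat subunit that binds trimethylated lysine 27, measured 10.97, 10.94, 12.3 and 17.1 CPM in control libraries 1 to 4. In siG9a it measured 25.8, 19.97, 31.97 and 26.4 CPM. These values rest on 16, 18, 20 and 33 reads in control and 50, 33, 56 and 46 reads in siG9a. The lowest siG9a library, number 2, was above the highest control library, number 4, so the groups did not overlap, which held for 7.32% of all genes tested. Between those nearest libraries the 95% Wilson intervals did overlap (14.2 to 28.05 CPM in siG9a 2, 12.2 to 24.1 CPM in control 4). The ratio of siG9a to control was 2.35, 1.83, 2.60 and 1.54 in numbers 1 to 4. The log2 change was 0.97 ± 0.28 (SE), with a limma adjusted p of 0.207, and in the blocked fit, at an SE of 0.25, of 0.0134. Permuting the 8 libraries exactly gave an unadjusted two-sided p of 0.0286, the smallest that 4 against 4 allows. Any gene whose groups do not overlap gets this p, so it adds nothing to the lack of overlap. With the block, edgeR gave an adjusted p of 0.00988 (11.3% of genes called) and DESeq2 one of 0.0498 (6.42% called). The call rested on all of the first 3 numbers: with the block, the limma adjusted p was 0.0554 without number 1, 0.0567 without number 2, 0.0833 without number 3 and 0.0197 without number 4. The estimate stayed between 0.86 and 1.09 in these 4 fits.

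Markers of cell types moved in the same blocked fit that called EED. Of the 8 rhabdomyosarcoma markers 3 were called lower and 0 higher, beside 6.52% and 4.86% of all genes. DES, the muscle intermediate filament, fell by 1.77 on the log2 scale. CHRNA1, a muscle acetylcholine receptor subunit, fell by 1.15 and FGFR4, a growth factor receptor and target of PAX3-FOXO1, by 0.59. These 3 were each lower in 4 of 4 numbers. Their adjusted p-values were 6.7e-06, 7.5e-05 and 0.023 by limma with the block. Without the block none of the 8 was called. MYOD1, the myogenic factor, was at 658 and 599 CPM on average in control and siG9a and was not called. These means hide a split, with 95.3 CPM in control 3 and 127.9 CPM in siG9a 3. The other libraries lay between 608 and 864 CPM. By sign alone, 6 of the 8 were lower and 2 were higher, MYCN by 0.65 and FOXO1 by 0.23. MYCN was higher in 4 of 4 numbers, and neither MYCN nor FOXO1 was called. The summed level of the 8 markers lay between 293 and 1832 CPM in control and between 301 and 1450 CPM in siG9a. Of the markers of other cells, 1 of 4 fibroblast genes (COL1A1) and 1 of 4 epithelial genes (CDH1) tested were called with the block. Both were lower, by 0.85 and 1.47, where 6.52% of all genes were called lower. COL1A1 was lower in 3 of 4 numbers, with a ratio of 1.17 in number 4. CDH1 was lower in 4 of 4 numbers but at low levels, 4.25 to 16.1 CPM in control and 0.61 to 4.01 CPM in siG9a. The 3 other epithelial genes tested were higher and not called, KRT8 by 0.37, KRT18 by 0.27 and KRT19 by 0.92. Of the fibroblast genes tested 3 were lower and 1 higher, and 0 of 3 neural genes were called. The summed fibroblast markers lay between 118 and 406 CPM in control and between 51.95 and 320 CPM in siG9a, and the epithelial ones between 10.3 and 75.6 CPM and between 23.5 and 43.96 CPM. LUM and THY1 averaged 0.15 and 0.17 CPM in control and were at 0 in the siG9a libraries. EPCAM averaged 0.17 CPM in control and 0.14 CPM in siG9a. None of them reached the mean of 1 CPM needed for testing. The part of these markers in the change of EED was not tested.

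EZH2, the main methyltransferase of dividing cells, measured 89.8, 88.1, 136.5 and 136.04 CPM in control and 99.04, 156.8, 135.3 and 119.9 CPM in siG9a. It was higher in numbers 1 and 2 and lower in numbers 3 and 4, and the groups overlapped. Its log2 change was 0.19 ± 0.23 (SE, 95% interval −0.31 to 0.70), with a limma adjusted p of 0.796, and 0.516 with the block. EZH1, the paralogue that prevails in resting tissue, measured 34.96, 43.1, 24.6 and 31.2 CPM in control and 45.4, 64.8, 42.3 and 39.0 CPM in siG9a. EZH1 was higher in 4 of 4 numbers, by ratios of 1.30, 1.50, 1.72 and 1.25, but siG9a 3 and 4 lay under control 2. Its log2 change of 0.50 ± 0.26 (SE) did not pass, with a limma adjusted p of 0.451, and 0.0952 with the block.

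SUZ12, the scaffold of the core, measured 89.8, 91.75, 121.1 and 166.7 CPM in control and 149.1, 122.3, 121.04 and 95.8 CPM in siG9a. The order of the libraries was opposite in the groups, with number 4 highest in control and lowest in siG9a. Its log2 change was 0.09 ± 0.24 (SE, 95% interval −0.44 to 0.61, limma adjusted p = 0.929). EED was therefore higher in each number while SUZ12 was higher in numbers 1 and 2 only, with a ratio of 1.00 in number 3 and of 0.575 in number 4.

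RBBP4, a histone-binding protein that also serves other chromatin complexes, measured 228, 245, 209 and 402 CPM in control and 208, 203, 203 and 218 CPM in siG9a. Control 4 was far above the rest, and siG9a 4 lay above control 3, so the groups overlapped. RBBP4 was lower in 4 of 4 numbers, with ratios of 0.916, 0.826, 0.972 and 0.542, and a log2 change of −0.33 ± 0.22 (SE, limma adjusted p = 0.582, and 0.171 with the block). Without control 4 the log2 change was −0.12. Its paralogue RBBP7 measured 77.5, 99.04, 185 and 78.9 CPM in control and 56.2, 102.9, 185 and 114 CPM in siG9a. In RBBP7 the groups overlapped, and both number 3 libraries were above the other 6, which lay between 56.2 and 114 CPM. Its log2 change was 0.03 ± 0.36 (SE), and 0.04 without number 3. The 6 listed RBBP4 pseudogenes reached at most 4.92 CPM, and EZH2P1 was at 0 in every library.

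JARID2, which recruits PRC2 to chromatin and is itself methylated by it, measured 165.2, 165.3, 141 and 147.5 CPM in control and 126, 124, 123 and 163 CPM in siG9a. It was lower in numbers 1 to 3 and higher in number 4, and siG9a 4 stood above the other siG9a libraries. Its log2 change was −0.21 ± 0.19 (SE, limma adjusted p = 0.700, and 0.418 with the block). AEBP2, the usual partner of JARID2, was at 11.97 ± 5.40 CPM in the controls, against 10.5 ± 3.60 CPM after knockdown (SD, n = 4 each).

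The Polycomb-like proteins bind CpG islands and lysine 36-methylated histones and take the place of JARID2 in the other form of the complex. PHF19 measured 45.2, 51.04, 75.02 and 58.2 CPM in control and 72.7, 67.2, 108 and 73.98 CPM in siG9a. It was higher in 4 of 4 numbers, by ratios of 1.61, 1.32, 1.45 and 1.27, but only siG9a 3 lay above every control library. Its log2 change was 0.48 ± 0.24 (SE), with a limma adjusted p of 0.437, and 0.0638 with the block, so it did not pass. MTF2 measured 130, 125, 158 and 141 CPM in control and 162, 117, 172 and 120.4 CPM in siG9a. MTF2 was higher in numbers 1 and 3 and lower in numbers 2 and 4, with a log2 change of 0.03 ± 0.20 (SE, 95% interval −0.41 to 0.47). PHF1 measured 14.4, 24.9, 5.53 and 18.7 CPM in control and 24.2, 24.8, 18.3 and 14.3 CPM in siG9a. The control 3 value of PHF1 rests on 9 reads, and the log2 change of 0.48 ± 0.41 (SE) did not pass in either fit. It was 0.076 without control 3 and 0.12 with number 3 left out of both groups.

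In all, 4 of the 10 members had the same direction in 4 of 4 numbers, EED, EZH1 and PHF19 higher and RBBP4 lower, where 30.2% of all genes tested did so. Several members overlap genes on the other strand in GENCODE 29: RBBP4 overlaps SYNC, RBBP7 overlaps TXLNG, PHF1 overlaps CUTA and JARID2 overlaps JARID2-AS1. EZH1, EZH2 and SUZ12 overlap noncoding RNA genes or pseudogenes on that strand, and EHMT2 overlaps EHMT2-AS1. Whether the counting used strand is not given in the sources used here, so their values are uncertain in that respect. EED, PHF19 and MTF2 overlap no other gene there apart from MIR6755, which lies in EED. In bulk RNA, fewer cells of a type and less RNA per cell cannot be told apart.

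Shares of summed CPM were compared per library for 5 subunits, 4 of them within a set of paralogues that take the same place in the complex and 1, JARID2, beside its partner AEBP2. EZH2 made up 71.98%, 67.1%, 84.7% and 81.4% of EZH1 and EZH2 together in control and 68.6%, 70.8%, 76.2% and 75.5% in siG9a. The difference was −3.55 percentage points (exact permutation test, two-sided p = 0.429, 0.643 adjusted over the 5 shares), and −0.744 points without control 3. MTF2 made up 68.5%, 62.2%, 66.2% and 64.7% of the 3 Polycomb-like genes in control and 62.6%, 55.9%, 57.6% and 57.7% in siG9a, lower in 4 of 4 numbers. Only siG9a 1 reached into the control range. PHF19 made up 23.9%, 25.4%, 31.4% and 26.7% in control and 28.1%, 32.2%, 36.3% and 35.4% in siG9a, higher in 4 of 4 numbers. The differences of −6.97 and 6.14 points each had an exact two-sided permutation p of 0.0571 and an adjusted p of 0.143, so neither passed, and both come from the same 3 genes. Exact sign flips within numbers gave 0.125 for each, the smallest p that 4 pairs allow. RBBP7 made up 29.4 ± 12.8% of RBBP4 and RBBP7 in control and 34.2 ± 10.8% in siG9a (SD, n = 4 each), with 46.96% and 47.7% in the number 3 libraries. JARID2 made up 92.9 ± 3.12% of JARID2 and AEBP2 in control and 92.7 ± 2.65% in siG9a (SD, n = 4 each).

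**Figure D3:**
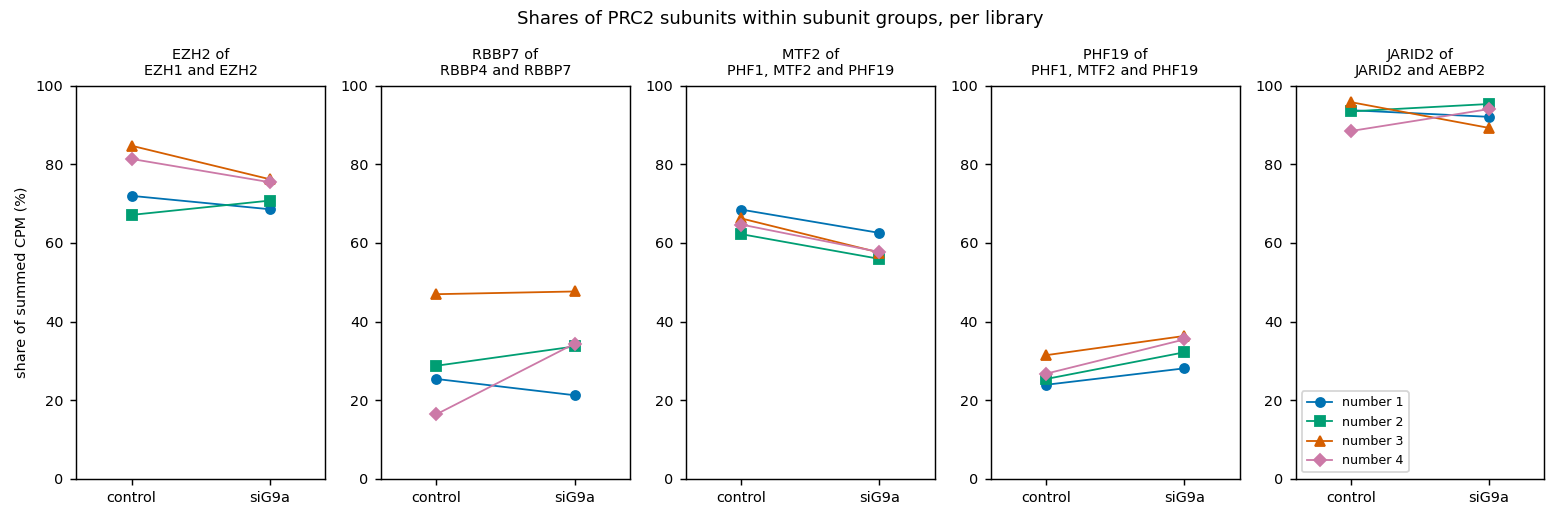
Share of summed CPM (vertical axis, percent, from 0 to 100) held by 1 subunit in each library, among its paralogues or, for JARID2, together with its partner AEBP2, with lines joining libraries of the same number. The share of MTF2 is lower and that of PHF19 higher in siG9a in each of the 4 numbers.

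Other genes that act with or against PRC2 were counted in the same fits. Of 35 such genes in 4 lists, 34 were tested, and with the block 5 were called (4 higher, 1 lower), beside 11.4% of all genes. Without the block 0 were called. Without number 3 there were 2, PHC3 and ASXL3, beside 2.77% of all genes in that fit. Of the accessory subunits, AEBP2, EPOP (listed as C17orf96), LCOR and LCORL were tested and 0 were called, with log2 changes between −0.13 and 0.25. EZHIP, an inhibitor of PRC2, had 0 reads in all 8 libraries. Of the H3K27 demethylases, KDM6A was at 9.97 and 8.998 CPM in control and siG9a, and KDM6B was at 10.03 and 16.3 CPM, higher in 4 of 4 numbers with an adjusted p of 0.161 in the blocked limma fit and 0.522 in the unblocked one.

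Of 22 genes of PRC1, the complex that ubiquitinates histone H2A and whose CBX proteins read the PRC2 mark, 3 were called with the block, each higher, beside 11.4% of all genes. Without it 0 were called, with 4 at an unadjusted p under 0.05, beside 12.5% of all genes. PHC3, a Polyhomeotic subunit, measured 19.9, 13.4, 11.1 and 22.3 CPM in control and 45.9, 34.5, 22.8 and 41.9 CPM in siG9a. Its groups did not overlap, and its log2 change was 1.08 ± 0.23 (SE, limma with the block, adjusted p = 0.00240, and 0.209 without it). CBX6, a chromobox protein, measured 165, 238, 323 and 171 CPM in control and 265, 389, 650 and 384 CPM in siG9a. It was higher in 4 of 4 numbers although the groups overlapped, with a log2 change of 0.89 ± 0.14 (SE, limma with the block, adjusted p = 0.000166, and 0.254 without it). PCGF3, a RING-finger partner of the variant complexes, rose from 32.3 ± 6.51 to 54.4 ± 11.3 CPM (mean ± SD, n = 4 each; adjusted p 0.0150 in the blocked limma fit, 0.256 in the unblocked one). The call of PCGF3 was lost without number 2, number 3 or number 4. PHC3 and PCGF3 overlap antisense genes. The median log2 change of the 22 genes was 0.22.

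Of 6 genes of PR-DUB, the deubiquitinase that removes the PRC1 mark, 2 were called with the block, beside 11.4% of all genes. ASXL3 fell, from 6 to 8 reads per control library (29 in all) to 1 read in the 4 siG9a libraries together, of which 3 were at 0. That is 3.24% of the control level, with an exact counting interval of 0.0793% to 19.5%. The blocked limma fit gave it an adjusted p of 0.00125 and the unblocked fit 0.0892, and DESeq2 did not call it in either fit. FOXK1 rose from 40.01 ± 9.89 to 59.6 ± 14.3 CPM (SD, n = 4 each) with an adjusted p of 0.0462 in the blocked limma fit and 0.401 in the unblocked one, a call lost when any 1 number was left out. BAP1, the catalytic subunit, was at 58.8 and 64.8 CPM, ASXL1 at 137 and 144 CPM, FOXK2 at 55.8 and 61.9 CPM, and ASXL2 at 49.8 and 69.4 CPM in control and siG9a, and these 4 were not called.

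Of 15 genes reported elsewhere as PRC2 targets in muscle or tumour cells, 13 were tested and 0 were called by limma in either fit, with 1 at an unadjusted p under 0.05 without the block (12.5% of all genes) and 3 with it (25.5% of all genes). EdgeR and DESeq2 also called 0 with or without the block. Their median log2 change was −0.29, with 9 of 13 lower. CKM and ACTA1 were under a mean of 1 CPM. The 3 genes under an unadjusted 0.05 with the block were MYH3, CDKN2A and RUNX3, which are named after their values were seen and did not pass adjustment. MYH3, the embryonic myosin heavy chain, was at 10.1 and 4.70 CPM in control and siG9a (adjusted p 0.0785 in the blocked limma fit). CDKN2A, which encodes cell cycle inhibitors, was at 36.6 and 53.2 CPM (0.0934), with a ratio of 3.24 in number 1 and of 1.28, 1.17 and 1.09 in numbers 2 to 4. RUNX3, a transcription factor, was at 49.2 and 64.99 CPM (0.0967).

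**Figure D4:**
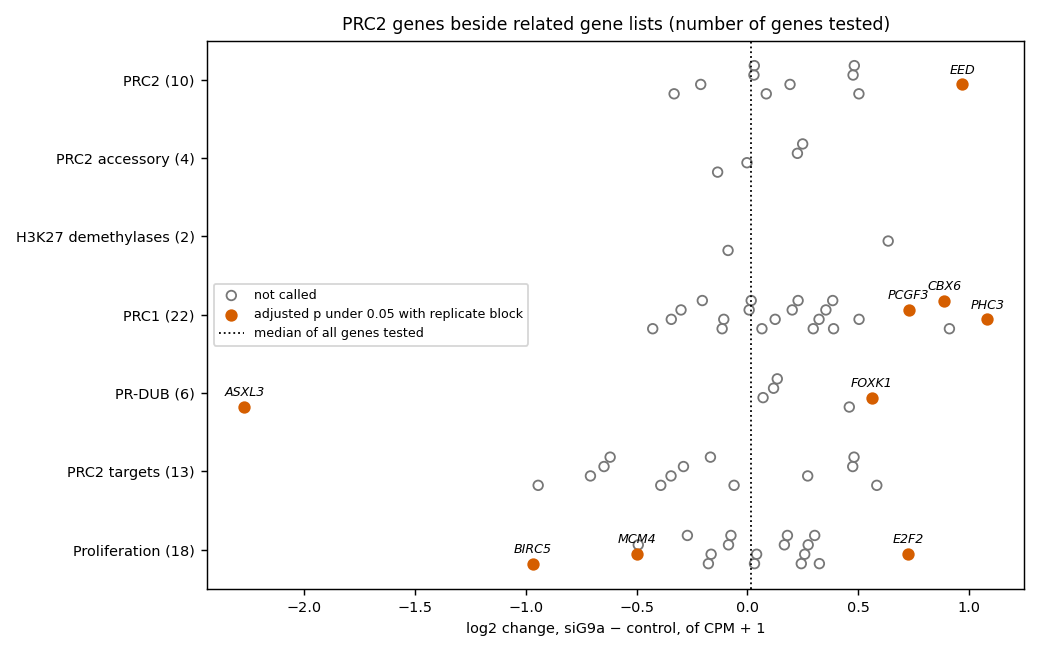
Log2 change (siG9a minus control, horizontal axis, of CPM + 1) of each tested gene in the PRC2 and related lists, with genes called by limma with the replicate block filled and named and a dotted line at the median of all genes tested. EED is the only filled PRC2 gene, and the ASXL3 value depends on the pseudocount because 3 of its 4 siG9a libraries are at 0.

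EZH2 and EED are known to be higher in cycling cells, so 18 proliferation genes were set beside them. With the block 3 were called, beside 11.4% of all genes, BIRC5 and MCM4 lower and E2F2 higher, and the median log2 change of the 18 was 0.04. BIRC5, an inhibitor of apoptosis that acts in mitosis, fell from 180 ± 38.3 to 91.03 ± 16.6 CPM (mean ± SD, n = 4 each; adjusted p 0.000469 in the blocked limma fit, 0.126 in the unblocked one). MCM4, a subunit of the replicative helicase, fell from 492 ± 183 to 350 ± 136 CPM (0.0214 and 0.564 by the same fits). E2F2, a transcription factor of the G1/S transition, rose from 31.1 ± 9.37 to 50.8 ± 8.50 CPM (0.0273 and 0.293). The call of MCM4 was lost without number 1, number 3 or number 4, and that of E2F2 without number 1 or number 2. DESeq2 with the block called BIRC5 and MCM4 but not E2F2. The summed level of the 18 genes was between 5522 and 6251 CPM in control and between 5239 and 6527 CPM in siG9a. Their part in the change of EED was not tested.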

How the data were processed

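Poly(A) RNA of 8 Rh41 libraries was measured with the QuantSeq 3′ kit and single-end reads, per the labels' protocols. The submitters' processing notes name FastQC 0.11.8, Trim Galore, STAR 2.5.0a, HTSeq 0.8.0 and edgeR 3.28. They name both GRCh38 and hg19, so the build behind the counts is not settled. The coordinates given for EED and EZH2 are those of the RefSeq promoter windows in GRCh38.p14. The authors deposited CPM per gene to 2 decimals. Whole reads were recovered for 100% of non-zero values within 0.0051 CPM. No 2 libraries within a group agreed within sampling noise (chi-square over degrees of freedom of 5.90 or more). The labels name biological replicates without saying what was replicated.

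Limma 3.58.1 in R 4.3.3 (lmFit, eBayes with trend, two-sided) was fitted to log2(CPM + 1) of 15092 genes whose mean over the 8 libraries reached 1 CPM, with Benjamini-Hochberg adjustment and a threshold of 0.05. The pseudocount of 1 understates changes of low genes. The group was the only term, and a second fit added the replicate number of the titles as a block. Deviations of same-numbered libraries from their group means correlated across genes at 0.50, 0.10, 0.67 and 0.13 for numbers 1 to 4, each over 0.1 before rounding. Same-numbered libraries were taken as pairs. However, control 2 and siG9a 4 correlated at 0.14, more than control 2 with siG9a 2 and more than control 4 with siG9a 4. The pairing of numbers 2 and 4 is therefore weakly borne out by these values. Alternatives changed the pseudocount (0.1 or 5) and the filter (none, or 5 CPM), or used median-ratio scaling, edgeR 4.0.16 and DESeq2 1.42.0 on recovered reads, and left-out libraries. Intervals of reads cover counting error only. The scripts were tested on simulated data.

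The members and lists were chosen with earlier results of these data known. Named by rule are the members, EHMT2, all genes of Polycomb lists of 6 or fewer, and up to 4 called genes of longer ones. CKM, ACTA1, MYH3, CDKN2A, RUNX3 and the cell type markers were named outside that rule, after their values were seen. Symbols were matched to RefSeq promoters (GRCh38.p14) for 10 of 10 members.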

Additional observations from a re-analysis of the deposited data

Results flagged for a closer look

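The spread of the 4 libraries was examined with Dixon's test, which asks whether 1 extreme library lies apart, for the members, EHMT2 and the 5 shares in each group. A library passed the 95% limit in 2 of 32 cases, and about 1.6 would do so by chance. JARID2 was at 163.4 CPM in siG9a 4, while the remaining siG9a libraries measured 123.3 to 125.9 CPM. PHF19 was at 108.5 CPM in siG9a 3, while the remaining siG9a libraries measured 67.2 to 73.98 CPM.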

How the results depend on the processing

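The number of members called was 0 without the block under each alternative run, and 1 (EED) with the replicate block by limma, edgeR and DESeq2. It ran from 0 to 1 over fits that left out a library or a pair. Over all genes, limma called 0 without the block and 1717 with it. The count was 18 with no filter on the mean CPM, 415 with number 3 left out of both groups, 291 by DESeq2, 1711 by edgeR with the block and 969 by DESeq2 with the block. It ran from 0 to 300 when 1 library was left out, 300 of them without control 3 and 2 without siG9a 4, and from 653 to 1392 when 1 pair was left out of the fit with the block. Of the other Polycomb genes, 0 were called without the block, 5 with it by limma and by edgeR, 2 by DESeq2 with it, 2 with number 3 left out, and 0 to 4 when a library or a pair was left out. Of the proliferation genes, limma and edgeR called 0 without the block and 3 with it, DESeq2 called 1 without it and 2 with it, and limma 0 to 2 when a library or a pair was left out. The median log2 change of the 10 members ran from 0.048 to 0.35 when a library or a pair was left out. The cause of these differences was not tested.

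Members with a log2 change near 0 turned direction when libraries were left out, none of them called: EZH2 ran from −0.018 to 0.32, SUZ12 from −0.13 to 0.38, RBBP7 from −0.24 to 0.33 and MTF2 from −0.067 to 0.12 (−0.00057 with number 3 left out). Among the other genes, AEBP2 ran from −0.56 to 0.11, EPOP from −0.15 to 0.18, KDM6A from −0.33 to 0.11, BAP1 from −0.029 to 0.34 and ASXL1 from −0.023 to 0.22. EPOP was −0.0019 in the fit reported, and 0.0021 with a pseudocount of 5, 0.031 with number 3 left out, 0.023 by edgeR, 0.00041 by edgeR with the block and 0.013 by DESeq2. The difference in the share of JARID2 was 1.92 points with number 3 left out, and ran from −1.67 to 0.947 points when 1 library was left out. The other 4 shares kept their direction under each alternative run. That of EZH2 ran from −6.61 to −0.744 points (without control 3) and that of RBBP7 from 0.386 (without siG9a 3) to 10.7 points when 1 library was left out. The smallest p possible is then 0.0571, and 0.1 with number 3 left out, so no share could pass there. EED, EZH1, RBBP4, JARID2, PHF19 and PHF1 kept their direction under each alternative run. At 16 to 33 reads of EED per control library, counting error limits what single libraries can show.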
